A study of Mus musculus with 18 samples.

Results

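The transcripts of 9 TGF-beta and BMP target and feedback genes were followed in mouse embryonic fibroblast lines with inducible dCas9, a Cas9 that binds DNA without cutting it, from a study of forced transcription of major satellite repeats, the tandem repeats of pericentromeric heterochromatin. The 9 genes were Id1, Id2, Id3, Smad6, Smad7, Skil, Tgfbi, Bambi and Ltbp2. They were chosen by name as a list of pathway responses, with earlier results of these data known. All 9 were among the 47937 gene IDs of the deposited count table. The low-count filter left 16216 genes for testing, among them 8 of the 9, and Tgfbi was left out. Total RNA was sequenced from 18 libraries in 6 groups of 3. The induced activator group expressed dCas9-VPR, a fusion with transcriptional activation domains, after 10 ng/ml doxycycline for 6 h, and its uninduced group had the same inducible construct and no doxycycline. The induced repressor group expressed dCas9-KM, labelled as the repressor, after 100 ng/ml doxycycline for 24 h, and was set against untreated cells of that line. The induced control group expressed dCas9 with no effector named, after 10 ng/ml doxycycline for 24 h, and was set against untreated cells of the control line. Every line was grown in serum free of tetracyclines with hygromycin. The labels do not say whether a line was 1 clone or whether the numbered libraries came from separate cultures. The p-values therefore set differences between groups only against the spread among these libraries, and that spread may be technical. Dose and time of induction differed between lines and cannot be told apart from the effector.

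TGF-beta, activins and BMPs are secreted dimers that bring together serine/threonine kinase receptors at the cell surface. The receptors phosphorylate Smad2 and Smad3 after TGF-beta or activin, and Smad1, Smad5 and Smad9 after BMP, and these enter the nucleus with Smad4. In fibroblasts the TGF-beta branch is known for driving matrix production and contractility, and the BMP branch for inducing the Id genes. Many direct targets feed back on the pathway: Smad6 and Smad7 act at the receptors, Skil on nuclear Smads, and Bambi as a pseudoreceptor that lacks the kinase.

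The libraries held between 14928765 and 25262912 counts. Levels are in CPM, a gene's counts scaled by TMM to a common library total. A gene is called where edgeR's quasi-likelihood p, adjusted by Benjamini-Hochberg across the 16216 genes, is below 0.05. The induced activator libraries stood apart from the other 15 on the first principal component, which held 78.4% of the variance. Of 12 fibroblast markers 9 reached a mean of 1 CPM in every group. Col1a1 averaged between 7308 and 9372 CPM over the groups, while the surface marker Thy1 stayed at or below 0.0543 CPM in every library. No epithelial marker averaged 1 CPM in any group, while 2 of 6 immune, 1 or 2 of 6 neural and 2 of 6 muscle markers did so in each group. Of the defining markers Epcam, Krt5, Cd3e, Rbfox3, Snap25 and Myod1 had no count.

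Per length of exon, Id1 and Id3 were the most abundant of the list. In the uninduced control libraries Id1 averaged 58.5 ± 2.08 and Id3 53.0 ± 3.05 RPKM (CPM per kilobase of exon, SD, n = 3 libraries), and their libraries overlapped. Smad7 followed at 17.4 ± 0.123 RPKM. Smad6 at 15.2 ± 0.616 and Id2 at 13.5 ± 0.859 RPKM overlapped, and Skil stood below them at 9.95 ± 0.295 RPKM. Bambi at 0.245 ± 0.0218 and Ltbp2 at 0.147 ± 0.0109 RPKM were far lower. Tgfbi, a secreted matrix protein named for its induction by TGF-beta, had 2 reads in all 18 libraries. It was at 0 in 16 of them, and a count of 0 allows a level of up to 0.115 to 0.2 CPM depending on the library, for counting error alone. In the induced activator libraries the order of RPKM levels was different, with Id3 first at 27.8 ± 2.23, Id1 at 22.5 ± 1.08, Smad7 at 13.1 ± 0.0982, Skil at 8.62 ± 0.121, Smad6 at 6.27 ± 0.803, Id2 at 4.79 ± 0.24, Ltbp2 at 1.28 ± 0.13 and Bambi at 0.436 ± 0.0812. No neighbours in that order overlapped in their libraries.

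**Figure D1:**
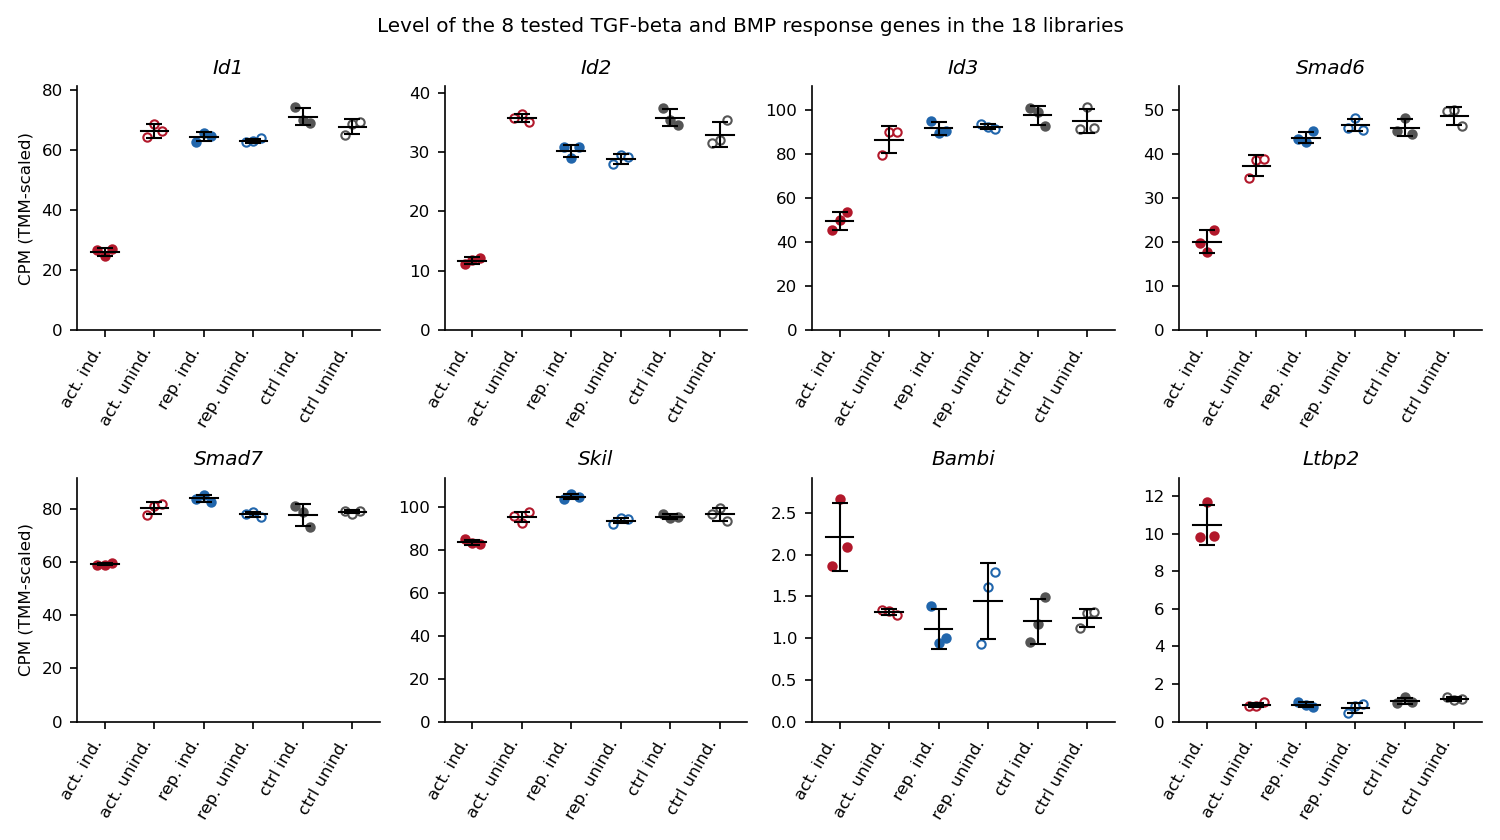
Level in CPM (y axis, from 0, scale differing by panel) of the 8 tested response genes in each library, by group (act., activator; rep., repressor; ctrl, control; filled, induced; open, uninduced). Bars are mean ± SD of 3 libraries; the induced activator libraries are the lowest of all 18 for Id1, Id2, Id3, Smad6, Smad7 and Skil and the highest for Bambi and Ltbp2.

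Activator induction lowered all 3 Id genes, which encode helix-loop-helix proteins that lack a DNA-binding region and hold back partner transcription factors. Id1 (ENSMUSG00000042745.9, chromosome 2, 152736251 to 152737410, GRCm38) stood at 26.6, 24.7 and 27.1 CPM in the induced activator libraries, against 64.3, 68.9 and 66.4 CPM in the uninduced ones. Id2 (ENSMUSG00000020644.8, chromosome 12, 25093799 to 25097140) stood at 11.1, 11.7 and 12.2 CPM in the induced libraries, against 35.69, 36.36 and 35 CPM in the uninduced ones. Id3 (ENSMUSG00000007872.3, chromosome 4, 136143497 to 136145755) stood at 45.66, 49.98 and 53.64 CPM in the induced libraries, against 79.66, 90.02 and 90.12 CPM in the uninduced ones. In each gene every induced library lay below every uninduced library of every line. The log2 fold change was −1.34 for Id1 (SE 0.05, 95% interval −1.45 to −1.24, edgeR adjusted p = 5.82e-42), a level 2.54-fold lower. For Id2 it was −1.61 (SE 0.06, interval −1.75 to −1.47, edgeR adjusted p = 5.58e-38), 3.06-fold lower. For Id3 it was −0.79 (SE 0.06, interval −0.91 to −0.67, edgeR adjusted p = 1.15e-12), 1.73-fold lower. Ordered from the largest fall, Id2 was number 586 and Id1 number 1067 of the 16216 genes. In these bulk libraries fewer cells of a type and less RNA per cell cannot be told apart.

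The inhibitory Smads fell as well. Smad6 (ENSMUSG00000036867.7, chromosome 9, 63953076 to 64022059), known for blocking mainly the BMP receptors, stood at 19.8, 17.7 and 22.8 CPM in the induced activator libraries, against 34.5, 38.6 and 38.9 CPM in the uninduced ones. Smad7 (ENSMUSG00000025880.11, chromosome 18, 75367529 to 75395935), which brings ubiquitin ligases to TGF-beta receptors, stood at 59.0, 59.1 and 59.8 CPM in the induced libraries, against 77.6, 81.2 and 81.9 CPM in the uninduced ones. Neither gene's groups overlapped. Smad6 changed by a log2 value of −0.87 (SE 0.06, interval −1.005 to −0.74, edgeR adjusted p = 5.84e-22). Smad7 changed by −0.43 (SE 0.04, interval −0.52 to −0.35, edgeR adjusted p = 1.53e-17).

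Skil (ENSMUSG00000027660.16, chromosome 3, 31095058 to 31122577), which encodes SnoN, a corepressor of Smad complexes, fell least. It stood at 84.8, 83.2 and 82.5 CPM in the induced activator libraries, against 95.6, 92.7 and 97.6 CPM in the uninduced ones. Its groups did not overlap, and the log2 fold change was −0.19 (SE 0.03, interval −0.26 to −0.11, edgeR adjusted p = 1.12e-06).

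Ltbp2 and Bambi rose. Ltbp2 (ENSMUSG00000002020.15, chromosome 12, 84783212 to 84876532), a matrix protein of elastic fibres in the latent TGF-beta binding protein family, stood at 9.79, 11.7 and 9.87 CPM in the induced activator libraries, against 0.843, 0.827 and 1.03 CPM in the uninduced ones. All 3 induced libraries lay above the other 15 libraries, the highest of which held 1.31 CPM. The log2 fold change was 3.54 (SE 0.17, interval 3.18 to 3.90, edgeR adjusted p = 1.29e-33), an 11.7-fold rise, number 726 of the 16216 genes from the largest rise. Bambi (ENSMUSG00000024232.1, chromosome 18, 3507923 to 3516404) stood at 1.87, 2.67 and 2.1 CPM in the induced libraries, against 1.34, 1.32 and 1.28 CPM in the uninduced ones. Its groups did not overlap, but the level was low and the interval wide (log2 fold change 0.73, SE 0.22, interval 0.25 to 1.21, edgeR adjusted p = 0.00233). Its rise was not seen when libraries were scaled to mitochondrially encoded genes, where the log2 value was −0.015 (adjusted p = 0.949).

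In all, 6 of the 8 tested genes were called lower and 2 higher on activator induction. The call itself sets them little apart, because 75.3% of all tested genes were called, 37.2% lower and 38.2% higher. Groups without overlap were found for all 8 and for 76.3% of all tested genes. The median log2 fold change was −0.613 over the 8 genes and 0.004 over all tested genes. The summed level of 9 mitochondrially encoded genes was between 9980 and 10600 CPM in the induced activator libraries, against 6000 to 6210 CPM in the uninduced ones. Of 5 endothelial markers only Pecam1 averaged 1 CPM or more in the induced activator line, at 18.3 to 23.3 CPM against 0.182 to 0.372 CPM, while Cdh5 stayed at or below 0.055 CPM and Emcn had no count in either group. Summed fibroblast markers were between 17300 and 17700 CPM in the induced libraries and between 15200 and 15500 CPM in the uninduced ones. The abundant Col1a1, Col1a2 and Vim averaged 9372, 4003 and 2513 CPM induced, against 8056, 3860 and 2114 CPM uninduced. The fibroblast marker Pdgfra went the other way, at 31.58 CPM induced against 70.28 CPM uninduced. The part of these in the results was not tested.

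**Figure D2:**
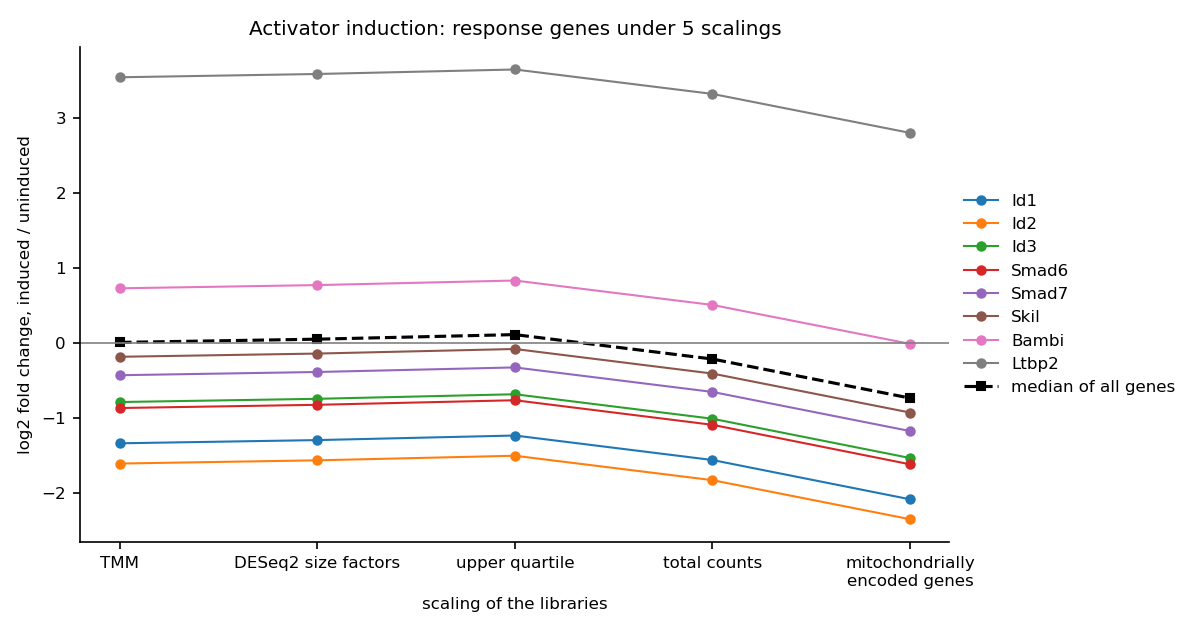
Log2 fold change of the 8 tested response genes on activator induction (y axis) under 5 ways of scaling the libraries (x axis), with the median of all tested genes as a dashed line. The 6 lower genes stay below 0 and below the dashed line throughout, Ltbp2 stays above 2.8, and Bambi reaches −0.015 with mitochondrially encoded genes.

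Scaling shifted the whole distribution, and the response genes with it. The median log2 change of all tested genes was −0.218 with total counts only and −0.739 when scaled to mitochondrially encoded genes. The median of the 8 genes was −0.836 and −1.36 under these scalings. The 6 genes that fell and Ltbp2 kept direction and call in all 29 alternative settings for this comparison. Skil, the smallest fall, was at −0.084 under upper-quartile normalization, where the median of all tested genes was 0.108. Of all called genes 50.7% were higher, against 32.8% with total counts only and 9.75% when scaled to mitochondrially encoded genes.

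The promoters of Id2, Id3 and Smad6, which fell together, and of Ltbp2, which rose, are shown so that the start regions of genes moving in opposite directions can be read side by side. A window of 250 bases before the RefSeq start site was read 5′ to 3′ on the gene's strand (RefSeq, GRCm38.p6). Windows were read for 5 of the 9 genes. The others either had no entry or were left out by choice before reading. Capitals mark matches on either strand to GGCGCC, a GC-rich word bound by BMP-activated Smads, or to CAGAC, the core of the CAGA box bound by Smad3. The entries lie at chr12:25096093-25096342 on the minus strand for Id2, chr4:136143572-136143821 on the plus strand for Id3, chr9:64022060-64022309 on the minus strand for Smad6 and chr12:84876492-84876741 on the minus strand for Ltbp2. For Id2, Id3 and Ltbp2 the GENCODE gene extends upstream of the RefSeq start, so another start site may be used.
Id2: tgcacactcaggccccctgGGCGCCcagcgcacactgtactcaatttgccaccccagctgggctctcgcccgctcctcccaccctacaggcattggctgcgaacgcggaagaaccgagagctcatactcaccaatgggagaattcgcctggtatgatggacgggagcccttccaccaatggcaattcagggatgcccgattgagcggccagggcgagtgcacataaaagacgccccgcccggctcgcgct
Id3: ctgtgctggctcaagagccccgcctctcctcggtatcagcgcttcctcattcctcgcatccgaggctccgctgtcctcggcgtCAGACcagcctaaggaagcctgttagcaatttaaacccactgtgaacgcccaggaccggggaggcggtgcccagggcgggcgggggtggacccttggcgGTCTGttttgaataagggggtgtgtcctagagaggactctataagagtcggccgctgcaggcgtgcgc
Smad6: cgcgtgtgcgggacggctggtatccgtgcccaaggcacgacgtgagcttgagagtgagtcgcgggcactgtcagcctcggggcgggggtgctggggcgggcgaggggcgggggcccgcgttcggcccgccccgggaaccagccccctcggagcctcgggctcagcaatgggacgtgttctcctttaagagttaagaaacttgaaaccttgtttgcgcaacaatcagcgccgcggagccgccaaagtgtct
Ltbp2: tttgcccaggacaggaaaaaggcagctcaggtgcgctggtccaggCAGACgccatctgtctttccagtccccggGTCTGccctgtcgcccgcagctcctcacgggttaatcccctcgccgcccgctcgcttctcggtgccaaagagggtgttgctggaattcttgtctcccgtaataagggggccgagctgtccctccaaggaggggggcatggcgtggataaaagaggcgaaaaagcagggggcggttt
GGCGCC occurred once in the Id2 window, 231 bases before the start, and in 9.59% of 32851 promoter windows of that length. CAGAC, read on both strands, occurred in the Id3 window 167 and 68 bases before the start, in the Ltbp2 window 205 and 176 bases before it, and in 42.2% of all windows. The Smad6 window held neither word. The Tgfbi window, not printed here, held both: GGCGCC 77 bases before the start, and CAGAC 239 and 85 bases before it. The GENCODE gene of Tgfbi also extends upstream of its RefSeq start. A match is a string of letters and not a bound site.

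The response to dCas9-VPR was also set against that to dCas9 alone, although induction lasted longer in the control line. On control induction edgeR called 0 of the 8 genes, with 1 at an unadjusted p below 0.05 and 0 called by DESeq2 or limma-voom. Of all tested genes 0.463% were called, 0.253% higher and 0.21% lower, and 15.5% had groups without overlap. The higher share of called genes was 54.7%, against 78.4% with total counts only and 9.38% scaled to mitochondrially encoded genes. Id2 came nearest, at 37.5, 35.3 and 34.6 CPM in the induced control libraries, against 31.5, 31.9 and 35.3 CPM in the uninduced ones (log2 fold change 0.13, interval 0.02 to 0.24, edgeR adjusted p = 0.312). The groups overlapped in this and in every other tested gene of the list. The log2 intervals in the control line lay between −0.19 and 0.24 for Id1, Id2, Id3, Smad6, Smad7 and Skil, and were wide for Bambi (−0.56 to 0.52) and Ltbp2 (−0.64 to 0.42).

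**Figure D3:**
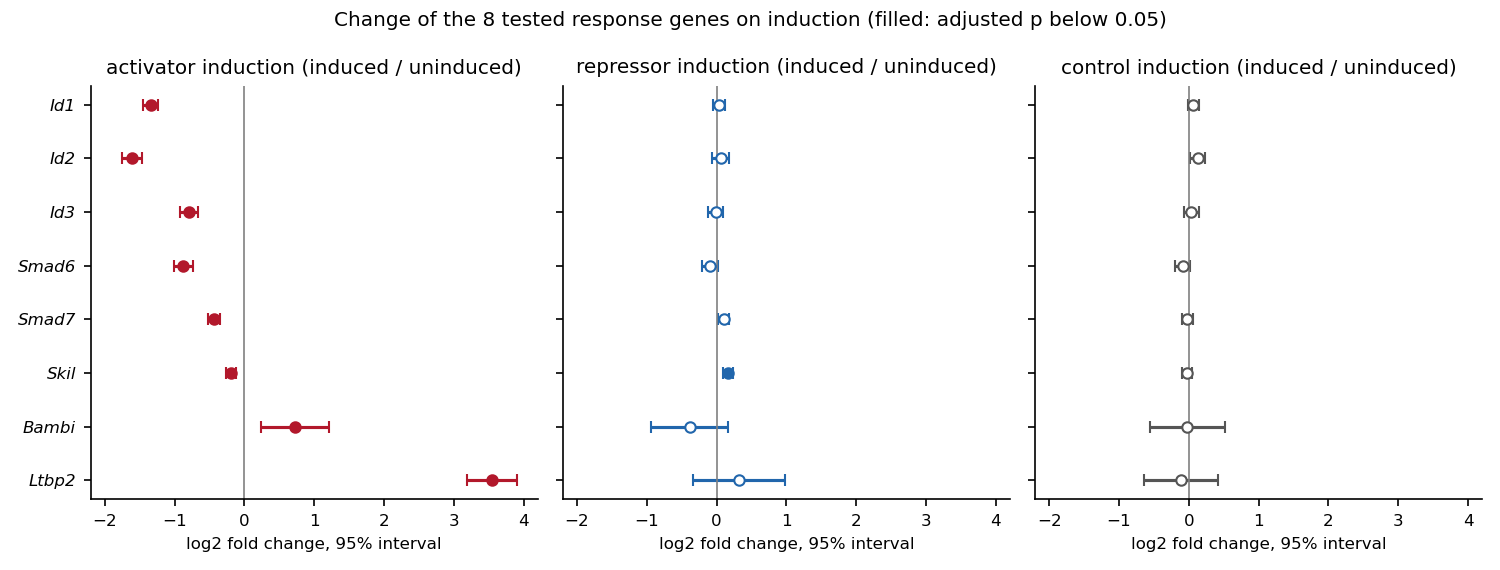
Log2 fold change of induced against uninduced libraries (x axis) for the 8 tested response genes in the activator, repressor and control lines. Points are edgeR estimates with 95% intervals, filled where the adjusted p is below 0.05: all 8 in the activator line, Skil alone in the repressor line and none in the control line.

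The difference between the activator and control responses, tested as an interaction, was called for all 8 genes, 6 lower and 2 higher, where 63.7% of all tested genes were called, 30.8% higher and 33.0% lower. The higher share of called genes was 48.3%, against 26.3% with total counts only and 7.35% scaled to mitochondrially encoded genes. The interaction was −1.74 for Id2 (SE 0.08, edgeR adjusted p = 2.90e-32), −1.41 for Id1 (SE 0.06, edgeR adjusted p = 4.57e-35) and 3.65 for Ltbp2 (SE 0.32, edgeR adjusted p = 1.60e-17), all log2 values. For Skil the log2 value was −0.17 (interval −0.27 to −0.07, edgeR adjusted p = 0.00143), a call lost under upper-quartile normalization (−0.067, adjusted p = 0.217). For Bambi it was 0.75 (interval 0.02 to 1.47, edgeR adjusted p = 0.0442). That call was lost in 12 of 29 alternative settings, with adjusted p over all of them between 0.0211 and 0.899. Leaving out any 1 of the following libraries was enough: induced activator library 2 (adjusted p = 0.124), uninduced activator library 1, 2 or 3 (0.0621, 0.0609 and 0.0638), induced control library 1 or 2 (0.116 and 0.0754), or uninduced control library 2 or 3 (0.0982 and 0.0764).

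Repressor induction raised Skil, and no other gene of the list was called. Skil stood at 103.4, 106.0 and 104.7 CPM in the induced repressor libraries, against 92.1, 94.6 and 94.1 CPM in the uninduced ones. Its groups did not overlap, and the log2 fold change was 0.16 (SE 0.03, interval 0.09 to 0.24, edgeR adjusted p = 0.000241), where 5.21% of all tested genes were called higher, 4.59% lower and 9.81% in either direction. With mitochondrially encoded genes as the scale the call was lost (log2 value 0.152, adjusted p = 0.0887). The higher share of all called genes was 53.1%, against 73.4% with total counts only. Summed neural markers were between 52.4 and 53.5 CPM in the induced repressor libraries, against 32.9 to 35.6 CPM in the uninduced ones, with Rbfox3 and Snap25 at 0 in both. Summed muscle markers were between 8.77 and 10.4 CPM, against 5.43 to 5.53 CPM, with Myod1 at 0. Only 1 of 6 neural and 2 of 6 muscle markers averaged 1 CPM or more in each of these groups. Summed fibroblast markers were lower, between 14000 and 14200 CPM induced, against 16800 to 17100 CPM uninduced. The part of these in the results was not tested. Smad7 stood at 83.9, 85.3 and 82.6 CPM in the induced libraries, against 78.2, 78.9 and 77.1 CPM in the uninduced ones. Its groups did not overlap either, and its log2 value of 0.10 (interval 0.03 to 0.18) was just short of a call (edgeR adjusted p = 0.0538). Over the alternatives that adjusted p lay between 0.0164 and 0.441, and 8 of 29 called it. Of these, 3 left out 1 library: induced activator library 1 (0.0477) or 3 (0.0384), or induced control library 3 (0.0425).

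The other tested genes showed log2 changes in the repressor line of 0.03 for Id1, 0.06 for Id2, −0.01 for Id3, −0.09 for Smad6, −0.39 for Bambi and 0.32 for Ltbp2. Their intervals lay between −0.20 and 0.18 except for Bambi (−0.94 to 0.17) and Ltbp2 (−0.33 to 0.98). The Smad6 groups did not overlap (43.2, 42.6 and 45.1 CPM induced, against 45.9, 48.0 and 45.4 CPM uninduced), which made 3 genes of the 8, against 26.7% of all tested genes. The interaction against the control line was called for Skil, with a log2 value of 0.18 (interval 0.08 to 0.28, edgeR adjusted p = 0.0135), where 2.73% of all tested genes were called, 1.19% higher and 1.54% lower. The higher share of called genes was 43.7%, against 55.6% scaled to mitochondrially encoded genes. Without induced repressor library 2, uninduced repressor library 1 or uninduced control library 2 its adjusted p was 0.0526, 0.0516 and 0.0856, and over all alternatives it lay between 0.0061 and 0.237. The activator and repressor interactions share the control libraries. Skil therefore fell in the activator line and rose in the repressor line, each against its own uninduced libraries, by log2 values of −0.19 and 0.16.

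The lines already differed before induction in a few of these genes. In the uninduced activator line Smad6 averaged 37.3 ± 2.47 CPM, against 48.6 ± 1.98 CPM in the uninduced control line (SD, n = 3 each), and the groups did not overlap. The log2 difference was −0.39 (SE 0.05, interval −0.50 to −0.28, edgeR adjusted p = 2.17e-09), and it was called in all 28 alternatives. Id3 averaged 86.6 ± 6.01 CPM in the uninduced activator line and 94.98 ± 5.47 CPM in the uninduced control line (log2 difference −0.14, interval −0.25 to −0.03, edgeR adjusted p = 0.0449). That call was lost in 11 of 28 alternatives. Of these, 9 left out 1 library: uninduced activator library 1 (adjusted p = 0.247), uninduced control library 2 (0.236), induced activator library 2 (0.0737), induced control library 2 (0.0579), induced repressor library 2 or 3 (0.0556 and 0.065) or uninduced repressor library 1, 2 or 3 (0.0611, 0.0644 and 0.0621). Id2 was not called (0.13, edgeR adjusted p = 0.0667) but passed in 4 of 28 alternatives, 1 of them without uninduced control library 3 (0.0195), with adjusted p over all of them between 0.0195 and 0.705. Of all tested genes 19.5% were called in this comparison, 8.92% higher and 10.5% lower, and 33.4% had groups without overlap, as did 3 of the 8. The higher share of called genes was 45.8%, against 11.4% scaled to mitochondrially encoded genes. The median over the 8 genes was −0.025, against 0.004 over all tested genes.

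Between the uninduced repressor and control lines edgeR called none of the 8 genes, with 3 at an unadjusted p below 0.05 and 0 called by DESeq2 or limma-voom, and 1.56% of all tested genes were called, 0.863% higher and 0.697% lower. Id2 came nearest, with 28.9 ± 0.835 CPM in the repressor line and 32.9 ± 2.10 CPM in the control line (SD, n = 3 each, log2 difference −0.18, edgeR adjusted p = 0.0695). Over its 28 alternatives that adjusted p lay between 0.0412 and 0.324, and it passed without induced activator library 3 (0.0472). Id1, Id2 and Ltbp2 had groups without overlap in this comparison, as did 18.4% of all tested genes.

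Ligands, receptors, transducers and further targets of the same pathway were followed as a list of 103 other genes, of which 84 were tested. Activator induction lowered 46 of the 84 and raised 22, with 16 not called, where 37.2% of all tested genes were called lower and 38.2% higher. The median log2 fold change was −0.264, against 0.004 over all tested genes, and the counts by role that follow are read against the same shares. With total counts only 13 were called higher, and scaled to mitochondrially encoded genes 3 were called higher and 78 lower. Of 10 tested genes in the ligand list 8 fell and none rose, with a median log2 fold change of −1.12. That list includes Bmp1, which encodes a protease and not a ligand. Bmp1 averaged 51.3 ± 0.799 CPM in the induced activator line and 53.2 ± 1.3 CPM in the uninduced one. Bmp4, a BMP ligand, averaged 14.8 ± 3.35 CPM in the induced activator line and 45.9 ± 2.43 CPM in the uninduced one (SD, n = 3 each, log2 fold change −1.62, edgeR adjusted p = 1.96e-09). The activin subunit genes Inhba (−1.36) and Inhbb (−1.37) also fell. Of the TGF-beta isoform genes, Tgfb1 was at 31.6 ± 1.39 CPM induced and 33.1 ± 0.94 CPM uninduced and was not called (log2 fold change −0.06). Tgfb2 was lower, at 32.75 ± 1.1 CPM induced against 47.65 ± 0.685 CPM uninduced. Tgfb3 was lower too, at 25.88 ± 4.09 CPM induced against 61.18 ± 3.99 CPM uninduced. Bmp2, which encodes another BMP ligand, had no count in any library.

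Among 12 tested receptor and coreceptor genes 6 fell and 1 rose. Rgma, a BMP coreceptor gene, averaged 3.8 ± 0.9 CPM in the induced activator line and 12.4 ± 0.802 CPM in the uninduced one (log2 fold change −1.68, edgeR adjusted p = 9.16e-24). The TGF-beta receptor genes Tgfbr2 (53.7 ± 3.49 CPM induced, 103.2 ± 2.17 CPM uninduced, log2 fold change −0.94) and Tgfbr1 (−0.63) fell too. Of 19 transducers and regulators 14 fell and 3 rose. Smad3, the transducer of TGF-beta and activin signals, averaged 25.9 ± 1.51 CPM in the induced activator line and 87.4 ± 2.11 CPM in the uninduced one (log2 fold change −1.76, edgeR adjusted p = 7.18e-50). The corepressor genes Tgif1 (−2.17) and Tgif2 (−1.30) were lower as well.

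Extracellular antagonists and latency factors were divided, with 10 of 20 higher and 6 lower. Grem1, a secreted BMP antagonist, had 73 counts in the induced activator libraries and none in the uninduced ones, at least 30.8-fold higher against a floor of 3 counts over the group (edgeR adjusted p = 1.89e-14). Itgb6, an integrin subunit that helps to free latent TGF-beta, averaged 1.53 ± 0.182 CPM in the induced line and 0.174 ± 0.0659 CPM in the uninduced one (log2 fold change 3.04). Nog, which encodes the BMP antagonist noggin, was lower at 1.12 ± 0.0423 CPM against 3.56 ± 0.808 CPM (log2 fold change −1.62). Other target genes fell in 12 and rose in 8 of 23. The cell cycle inhibitor gene Cdkn2b (−1.80) and the transcription factor gene Snai2 (−1.75) fell, and Smoc1, a secreted matricellular gene, rose to 1.12 ± 0.243 CPM in the induced line, against 0.118 ± 0.115 CPM in the uninduced one (log2 fold change 2.98).

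**Figure D4:**
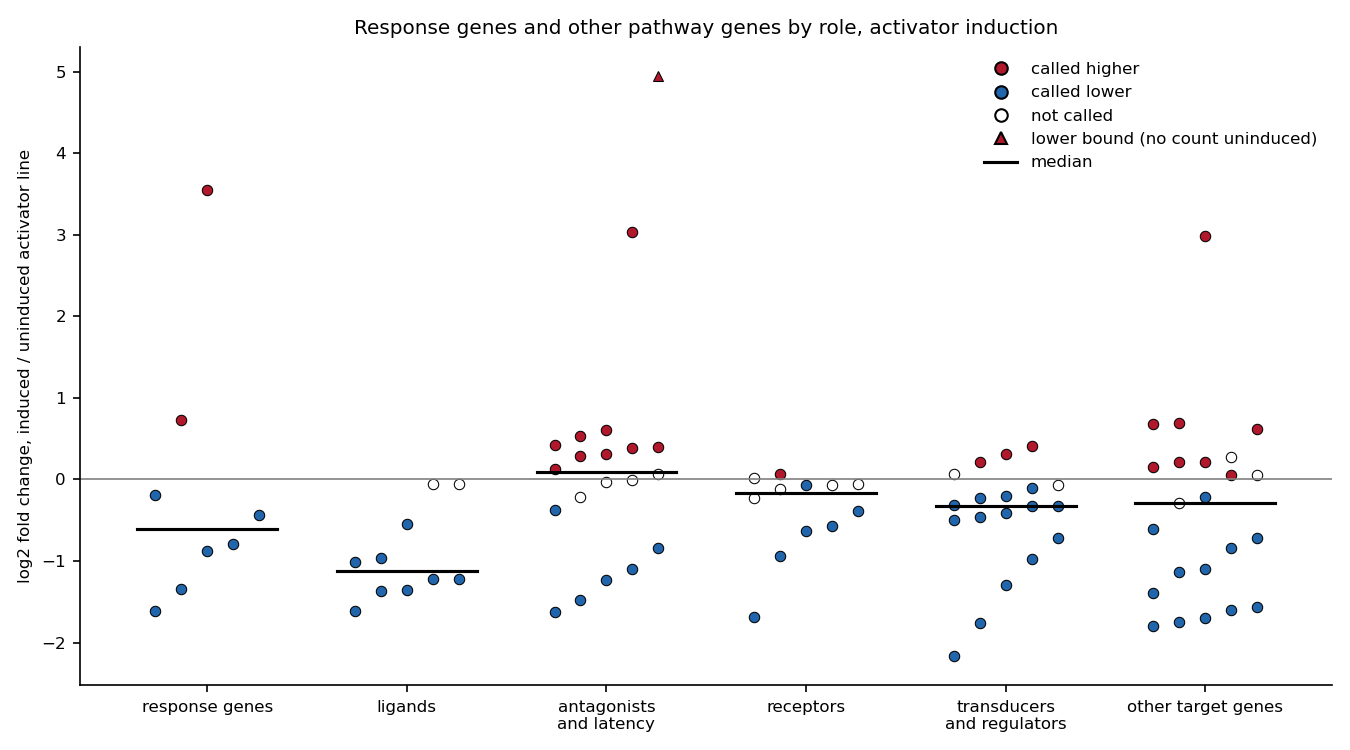
Log2 fold change on activator induction (y axis) of the 8 tested response genes and 84 other tested pathway genes by role (x axis), 1 point per gene. Red points were called higher, blue lower, and open ones not called. The triangle is a lower bound for Grem1, and bars are medians. Of 10 genes in the ligand list, which includes the protease gene Bmp1, 8 lie in the blue set and none in the red.

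In the repressor line 9 of the 84 other pathway genes rose and 11 fell, where 5.21% of all tested genes were called higher and 4.59% lower. The median log2 fold change was −0.01 over the 84 genes and −0.001 over all tested genes. Tgfb1 rose to 35.6 ± 0.19 CPM in the induced repressor line, against 26.5 ± 0.657 CPM in the uninduced one (SD, n = 3 each, log2 fold change 0.43, edgeR adjusted p = 2.03e-09). The matricellular gene Ccn2 rose (log2 fold change 0.85), as did Tagln, a smooth muscle actin-binding protein gene (0.33), while the collagen gene Col1a2 fell (−0.36). Falls were also called for Tgfbr2 (−0.16), Tgif1 (−0.19), Itgb8 (−0.42), Bmper (−0.22) and Fbn1 (−0.13). The Itgb8 call was lost without induced repressor library 2 (adjusted p = 0.0882) or uninduced repressor library 3 (0.0565), and the Fbn1 call without induced repressor library 2 (0.0663). Small rises were called for Bmpr2 (0.09), Pmepa1 (0.15) and Sptbn1 (0.08), and each was lost without any 1 of several libraries. For Bmpr2 and Sptbn1 these were induced repressor library 1, 2 or 3 and uninduced repressor library 1 or 2, with adjusted p up to 0.228 for Bmpr2 and 0.102 for Sptbn1. For Pmepa1 they were induced repressor library 1, 2 or 3 and uninduced repressor library 2, with adjusted p up to 0.211, and DESeq2 did not call it either (0.0902). Without induced repressor library 1 or 3 the list held 5 genes higher. In the control line 1 of 84 was called higher, where 0.253% of all tested genes were. This was Thbs1, an activator of latent TGF-beta, at 1704 ± 20.9 CPM induced against 1538 ± 36.6 CPM uninduced (log2 fold change 0.15, edgeR adjusted p = 0.000663). Between 1 and 3 were called higher there when 1 library was left out, with 2 without induced activator library 1, uninduced activator library 3 or induced control library 2 or 3, and 3 without induced activator library 3.

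In the uninduced activator line 12 of the 84 genes were higher and 27 lower, each relative to the uninduced control line, where 8.92% of all tested genes were called higher and 10.5% lower. Scaled to mitochondrially encoded genes 5 of the 84 were higher. Tgfb2 averaged 47.7 ± 0.685 CPM in the uninduced activator line and 75.9 ± 1.32 CPM in the uninduced control line (log2 difference −0.67, edgeR adjusted p = 3.79e-25). Also lower were Bmp4 (−0.50), Thbs1 (−0.70), Fbn2 (−0.54), Nog (−0.41), Tgfbr2 (−0.24), Bmpr1a (−0.20), Acvr1 (−0.17), Ski (−0.27), Adamts1 (−0.87) and Spry1 (−0.65). Higher there were Tgfb1 (0.27), Nedd4l (0.29), Pmepa1 (0.23) and the matrix gene Tnc (0.57). Nog was no longer called without uninduced activator library 1 or 2 (adjusted p = 0.368 and 0.0682) or uninduced control library 1 or 2 (0.0678 and 0.25), nor was Acvr1 without uninduced activator library 1 (0.0581). Between the uninduced repressor and control lines 2 were higher and 3 lower, where 0.863% of all tested genes were called higher and 0.697% lower. Among them were Col1a2 (0.13), Ltbp1 (−0.11) and Tnc (−0.20). The Ltbp1 call was lost without uninduced repressor library 2 or 3 or uninduced control library 2 or 3, with adjusted p up to 0.141. The Tnc call was lost without uninduced repressor library 1, 2 or 3 or uninduced control library 2 or 3, with adjusted p up to 0.245, and by DESeq2 (0.0997). Without uninduced repressor library 2 or 3 or uninduced control library 2 none of the 84 was lower there, and 1 was without uninduced control library 3. Higher calls numbered 1 without uninduced repressor library 2 or 3 or uninduced control library 1 or 2.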

How the data were processed

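Whole-number read counts per gene ID were used as the authors deposited them, in 18 columns matched to samples by name. Per the labels' protocols, DNase-treated total RNA was made into stranded, rRNA-depleted libraries and sequenced from both ends. The build was mm10 per the submitters' processing notes. No source used here names the aligner, counting tool, annotation or strand setting, so genes that overlap, lie antisense or have near-identical copies are uncertain. Symbols, exon lengths and coordinates came from GENCODE M21, matched without version suffix for 47310 of 47937 IDs. The rest held 0.0423% of the counts.

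Genes were filtered with filterByExpr, normalized by TMM and fitted with edgeR 4.0.16 (R 4.3.3) using the robust quasi-likelihood test, with 1 coefficient for each of 6 groups and 12 residual degrees of freedom. The common biological coefficient of variation was 0.0246. Standard errors are the absolute log2 fold change divided by the root of F, and 95% intervals use the 12 residual degrees of freedom. The 7 comparisons were 3 inductions, 2 interactions and 2 between uninduced lines. The procedure was tested on simulated data. RPKM are CPM per kilobase of merged exons. Alternatives were other scalings, filters, a fit of the compared groups alone, DESeq2 1.42.0, limma-voom (limma 3.58.1), replicate blocks and each library left out.

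The response genes, the pathway lists and the tests were chosen with earlier results of these data known. All 9 response genes are named. Of the other pathway genes, up to 3 called genes per role and comparison with a mean of at least 1 CPM in a compared group are named, by size of change, and others only where said. A gene that this rule would name is not reported here.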

Additional observations from a re-analysis of the deposited data

Results flagged for a closer look

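Each result here is a change on induction that differed between an effector line and the control line by an interaction test (edgeR adjusted p below 0.05). Values are log2 differences, activator or repressor response minus control response. The lines also differed in dose or time of doxycycline, which cannot be told apart from the effector.

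In the activator line the response genes differed by −1.41 (Id1), −1.74 (Id2), −0.83 (Id3), −0.79 (Smad6), −0.41 (Smad7), −0.17 (Skil), 0.75 (Bambi) and 3.65 (Ltbp2). Among ligands and receptors the differences were −1.65 for Bmp4, −1.48 for Inhba, −1.53 for Inhbb, −1.49 for Rgma, −0.68 for Tgfbr1 and −0.94 for Tgfbr2. Among antagonists and latency factors they were 3.14 for Itgb6 and −1.38 for Nog. The fitted value of 9.69 for Grem1 depends on the prior count, since its control groups held 0 counts when induced and 1 when uninduced, and the call was lost without uninduced control library 1 (adjusted p = 1.0). Transducers and other targets differed by −1.70 (Smad3), −2.12 (Tgif1), −1.32 (Tgif2), −1.90 (Snai2), −1.79 (Ccn2) and −1.73 (Adamts1).

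In the repressor line the differences were 0.18 for Skil, 0.44 for Tgfb1, 0.62 for Ccn2, −0.36 for Col1a2, −0.26 for Bmper, −0.21 for Fbn1 and −0.18 for Thbs1. Atoh8 differed by −0.35 (edgeR adjusted p = 0.0406), a call lost with DESeq2 (0.157), limma-voom (0.0673), total counts only (0.0617) and mitochondrially encoded genes as the scale (0.184). It was also lost without induced repressor library 2 (0.182) or 3 (0.0637), uninduced repressor library 1 (0.136) or 3 (0.135), induced control library 1 (0.165) or 2 (0.0707), or uninduced control library 1 (0.158) or 2 (0.069).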

How the results depend on the processing

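Among the alternatives the 6 falls of the activator induction were called in all 29, and 1 called direction turned, that of Bambi when scaled to mitochondrially encoded genes (log2 value −0.015). With 1 library left out 40 counts of called genes moved by over 1.5 times and 464 did not, and under the other settings 40 moved and 260 did not. Among values of named genes 63 lost and 5 gained a call with 1 library left out. Under the other settings 35 lost and 10 gained one. There 1291 stayed called in the same direction or stayed uncalled, and an uncalled value could change sign. The cause was not tested where no reason is given.

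Scaled to mitochondrially encoded genes, response genes called higher numbered 1 on activator induction, 0 on repressor induction, 1 in the activator interaction and 0 in the repressor interaction. Other pathway genes then numbered 3 higher and 78 lower on activator induction, 5 higher on repressor induction and 0 higher on control induction. They numbered 2 higher and 75 lower in the activator interaction, 2 higher and 3 lower in the repressor interaction, 5 higher in the uninduced activator line, and 1 higher and 0 lower in the uninduced repressor line. With total counts only, 13 pathway genes were higher on activator induction, 5 on control induction and 8 in the activator interaction, and response genes higher numbered 2 on repressor induction and 1 in the activator interaction. The activator interaction also had 1 response gene higher without a low-count filter and with DESeq2.

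Response genes higher on repressor induction numbered 2 with the stricter filter, with either replicate block and with the compared groups alone. Pathway genes higher on control induction numbered 2 with upper-quartile normalization, no filter, the stricter filter, the block across lines, the compared groups alone or DESeq2. In the uninduced activator line 1 response gene was higher with the block across lines, the compared groups alone or limma-voom, and 1 was lower with upper-quartile normalization or the compared groups alone. In the uninduced repressor line 1 response gene was lower with the block across lines or the compared groups alone, and 5 pathway genes were lower with the compared groups alone.

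With 1 library left out, response genes called higher ranged from 1 to 2 on repressor induction and in the activator interaction, from 0 to 1 in the repressor interaction and in the uninduced activator line, where those lower ranged from 1 to 2. Response genes lower in the uninduced repressor line ranged from 0 to 1. Pathway genes higher ranged from 5 to 10 on repressor induction, from 1 to 3 on control induction and from 1 to 2 in the uninduced repressor line, where those lower ranged from 0 to 4.

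The labels do not say whether the replicate numbers pair the libraries, and no pairing was seen. Same-numbered libraries of a line deviated from their group means with correlations between −0.023 and 0.0245. Those of different lines did so with correlations between −0.0342 and 0.0328. Correlations near 0 over all tested genes do not settle how the libraries were made. Besides the counts given above, neither block moved a count of response or pathway genes by over 1.5 times. The block within each line could not be fitted to the comparisons between uninduced lines. Bambi and Ltbp2 were near 1 CPM outside the induced activator line, which limits what could be seen there.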

Other observations

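For each tested response gene, the gene of at least 10 CPM on average with the most similar log2 CPM over all 18 libraries is given as a description, out of 8951 genes. These were Gpr39 for Id1 (Pearson coefficient 0.996), Sipa1l3 for Id2 (0.993), Hs6st1 for Id3 (0.988), the Wnt ligand gene Wnt5a for Smad6 (0.993), Rhno1 for Smad7 (0.984), Osbpl3 for Skil (0.963), Dnajc15 for Bambi (0.884) and Sec23b for Ltbp2 (0.982). The induced activator libraries carry much of this likeness, but the other groups were not level in every gene. Osbpl3 averaged 74.9 CPM in the induced repressor line and 52.1 CPM in the uninduced one, and Wnt5a 26.4 CPM in the uninduced activator line and 35.6 CPM in the uninduced control line. Gpr39, for example, averaged 33.5 CPM in the induced activator line, 82.1 CPM in the uninduced activator line and 80.0 CPM in the uninduced control line.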
